A study of Mus musculus with 6 samples.

Results

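The smooth muscle contractile genes are 10 genes taken by name: Acta2, Actg2, Tagln, Myh11, Cnn1, Cnn2, Mylk, Smtn, Lmod1 and Myocd. All 10 are among the 18810 Ensembl genes of the deposited table, each with a single identifier, and all were tested. The table holds RPKM (read counts scaled by exon length and by the depth of the library, so that levels can be compared between genes) from RNA sequencing of atrioventricular canal regions at embryonic day 15.5. This tissue was cut out as a whole, including the mitral, tricuspid and aortic valves and as little heart muscle as possible, and its cells were not sorted. There were 3 libraries from Scx-/- embryos, which lack the basic helix-loop-helix transcription factor scleraxis throughout the body, and 3 from Scx+/+ littermates, all C57BL/6. Values per library are given in the order of replicates 1 to 3. The question was whether loss of Scx alters gene expression while the valves remodel.

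Smooth muscle contracts when calcium-bound calmodulin activates myosin light chain kinase, which phosphorylates the light chains of smooth muscle myosin and lets it pull on actin. Most of the genes for this apparatus are switched on by serum response factor, which binds CArG boxes in their promoters, together with its cofactor myocardin. Several of them, among them Acta2, Tagln and Cnn1, are not exclusive to smooth muscle, since the embryonic heart muscle expresses them for a time, whereas smooth muscle myosin heavy chain (Myh11) is regarded as the most specific of them.

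The sequence just before the start of transcription is shown for 4 members to place the CArG box, the element that joins this gene set, beside a member with high, a pair with intermediate and a member with low expression. RefSeq promoters on GRCm38.p6 were at hand for 6 of the 10 genes, and Actg2, Tagln, Myh11 and Myocd were not matched. Each line gives the last 120 bases before the start, 5′ to 3′ on the strand of the gene, with capitals for CArG boxes that hold at most 1 G or C in the A/T core.
Acta2 (chr19:34255374-34255493, minus strand): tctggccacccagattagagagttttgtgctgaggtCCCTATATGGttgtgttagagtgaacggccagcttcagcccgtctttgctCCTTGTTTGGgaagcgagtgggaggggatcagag
Cnn1 (chr9:22099133-22099252, plus strand): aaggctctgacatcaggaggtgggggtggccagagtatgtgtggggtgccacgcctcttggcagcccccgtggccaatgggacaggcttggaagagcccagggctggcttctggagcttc
Cnn2 (chr10:79988480-79988599, plus strand): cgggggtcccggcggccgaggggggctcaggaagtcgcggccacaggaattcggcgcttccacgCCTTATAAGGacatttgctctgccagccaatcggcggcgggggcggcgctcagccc
Lmod1 (chr1:135324693-135324812, plus strand): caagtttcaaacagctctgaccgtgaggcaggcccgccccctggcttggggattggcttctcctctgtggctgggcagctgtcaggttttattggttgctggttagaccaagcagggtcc

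Within the 250 bases before the start, Acta2 held 2 CArG boxes with 1 G or C in the core, whose first letters lie 84 and 34 bases before the start. Cnn2 held 1 CArG box without G or C in the core, 56 bases before the start. The windows of Cnn1, Lmod1, Mylk and Smtn held neither form. The form without G or C was found in 1.467% and the wider form in 8.593% of all 32851 promoter windows of that length. The E-box CANNTG, the kind of site that scleraxis and other basic helix-loop-helix factors bind, was found 3 times for Acta2, 1 time each for Cnn1, Cnn2 and Lmod1, and not for Mylk and Smtn. It was present in 66.22% of all windows. Both motifs read the same on either strand, and none of their matches overlapped in the 6 windows. A match of letters is a description and not evidence of a bound site.

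The depth of the libraries, recovered from the steps of the RPKM values, was 46429978 to 68570996 reads. Scx+/+ replicate 2 stood apart, since its 10 most abundant genes held 56.9% of its RPKM sum against 30.7% to 43.9% in the others. Reads of Scx over all its exons gave 33.6, 18.6 and 82.9 RPKM in Scx-/- against 29.5, 58.3 and 26.0 RPKM in Scx+/+, so that the genotypes overlapped and the whole-gene value does not check the labels. Expression of the first exon, by which the study checked the genotypes, was not analysed here. The 10 cardiomyocyte markers examined averaged 43.5 to 8453 RPKM each over the 6 libraries, with summed levels of 16404 to 24027 RPKM in Scx-/- and 14695 to 26437 RPKM in Scx+/+. The 8 markers of valve mesenchyme summed to 436.6 to 574.6 RPKM in Scx-/- and 409.3 to 457.2 RPKM in Scx+/+. Such sums follow the most abundant markers. The median log2 fold change of the 8, Scx-/- over Scx+/+, was -0.02, with 3 above 0 and 5 below.

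The 10 genes spanned about 3 orders of magnitude in level, and Acta2 (smooth muscle alpha-actin) alone made up 65.6% to 77.3% of their summed RPKM. Acta2 averaged 415.7 RPKM over the 6 libraries, above 98.6% of all genes. It was followed by Tagln at 65.6, Cnn1 at 44.4, Cnn2 at 24.1 and Myocd at 8.48 RPKM. Smtn averaged 2.32, Actg2 2.19, Mylk 1.59, Myh11 1.33 and Lmod1 0.399 RPKM. In this order Acta2, Cnn2 and Myocd did not overlap their neighbours in any library. Tagln and Cnn1 overlapped in range, although Tagln was above Cnn1 in 6 of 6 libraries. Smtn, Actg2, Mylk and Myh11 could not be ranked beyond the spread of the libraries, because the range of each overlapped that of the next. The defining gene of differentiated smooth muscle, Myh11, was thus above only 31.6% of the genes in the table. In these dissected tissues, fewer cells of a type and less RNA per cell cannot be told apart.

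**Figure D1:**
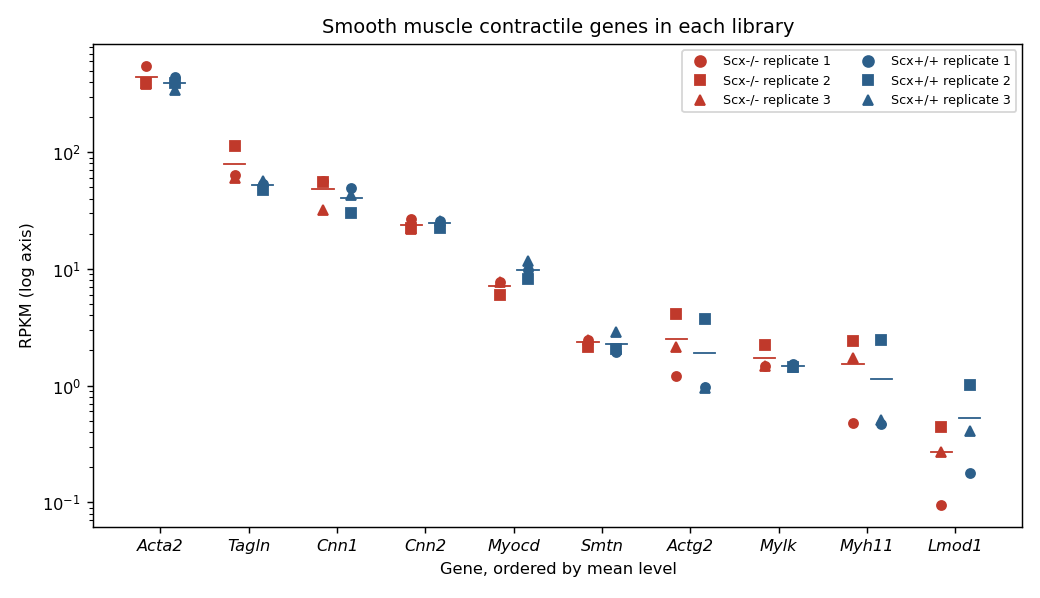
RPKM of the 10 genes on a log axis, with 1 point per library (circles, squares and triangles are replicates 1, 2 and 3) and a line at the mean of each genotype (red Scx-/-, blue Scx+/+). Acta2 sits at 343.4 to 548.5 RPKM in every library, while Actg2, Myh11 and Lmod1 vary severalfold within each genotype.

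No member passed the test between genotypes. The test was limma on log2(RPKM + 0.1) over all 18810 genes, with a gene called at an unadjusted p below 0.05, and 0 of the 10 members were called where 3.89% of all genes were. By direction, 0 members were called higher in Scx-/- (2.82% of all genes) and 0 lower (1.06%). After Benjamini-Hochberg adjustment 0 members and 0 of all genes were called by limma. Fold changes below are Scx-/- over Scx+/+ on the log2(RPKM + 0.1) scale, which understates those of low genes. The median log2 fold change was 0.18 over the 10 members and 0.10 over all genes, and 7 members lay above 0 and 3 below. Taken relative to the median of all genes, 6 lay above and 4 below. Of all called genes 72.6% were higher in Scx-/- as deposited, and 43.5% with the median of each library set to 0. In 2 members, Tagln and Myocd, the genotypes did not overlap, as was so for 9.5% of all genes. Tagln was the 1 member without overlap on the higher side in Scx-/-, where 7.19% of all genes lay, and Myocd the 1 member on the lower side, with 2.31% of all genes.

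**Figure D2:**
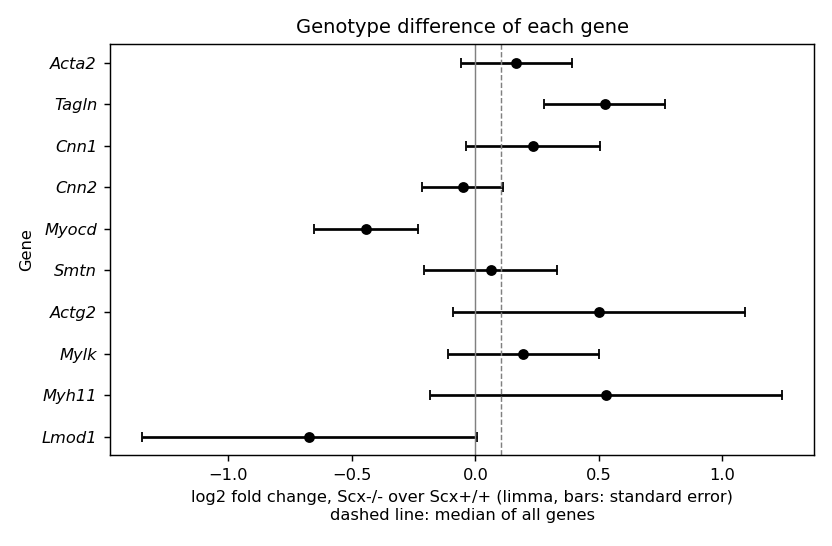
Log2 fold change of each member, Scx-/- over Scx+/+, with bars of 1 standard error from limma, a solid line at 0 and a dashed line at the median of all genes (0.10). Tagln and Myocd lie farthest from 0 relative to their error, on opposite sides, and the bars of Actg2, Myh11 and Lmod1 are the widest.

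Among the thin filament genes, Tagln, which encodes transgelin (SM22-alpha), an actin-binding protein of early smooth muscle, was higher in every Scx-/- library. Tagln (ENSMUSG00000032085, mm9 chromosome 9, 45737711 to 45744141, minus strand) was 63.5, 112.0 and 60.2 RPKM in Scx-/- (5267, 11899 and 5708 reads). In Scx+/+ it was 53.1, 47.8 and 56.7 RPKM (5059, 3519 and 6169 reads). Scx-/- replicate 2 stood at 2.34 times the lowest library, and the other Scx-/- libraries were only slightly above the highest Scx+/+ library. The fold was 1.44 (95% confidence interval 0.979 to 2.11), a log2 fold change of 0.52 with a standard error of 0.24, and the p from limma was 0.0614 before and 0.967 after adjustment. The log2 fold change was 0.24 without Scx-/- replicate 2, 0.17 without replicate 2 of both genotypes (an alternative added after seeing the data) and 0.68 without Scx-/- replicate 3, and of these fits Tagln was called only in the last. Its direction was kept in all 16 alternatives. Because its libraries did not overlap as deposited, only quantile normalization and median centring could have reversed it. These gave log2 fold changes of 0.42 and 0.41, at an unadjusted p from limma of 0.203 and 0.141. With the median of each library set to 0, Scx+/+ replicate 3 lay above Scx-/- replicates 1 and 3, so the genotypes then overlapped. Of the exon length of Tagln, 4.10% is shared with Pcsk7 on the opposite strand, and the strand of the counting is not given in the sources used here.

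Acta2, the main actin of vascular smooth muscle, and Cnn1, a calponin that binds actin and restrains myosin, had higher means in Scx-/- but overlapped between genotypes. Acta2 (ENSMUSG00000035783, mm9 chromosome 19, 34315580 to 34329826, minus strand) was 548.5, 394.6 and 381.2 RPKM in Scx-/- and 436.7, 389.7 and 343.4 RPKM in Scx+/+. Only Scx-/- replicate 1 was above every Scx+/+ library, and the log2 fold change of 0.17 went to -0.00096 without it. Cnn1 (ENSMUSG00000001349, mm9 chromosome 9, 21903725 to 21914074, plus strand) was 56.9, 55.8 and 32.1 RPKM in Scx-/- and 48.8, 29.9 and 43.0 RPKM in Scx+/+. Its highest values were in Scx-/- replicates 1 and 2, and its lowest were in Scx-/- replicate 3 and Scx+/+ replicate 2. The fold of Acta2 was 1.12 (95% confidence interval 0.787 to 1.60) and that of Cnn1 1.18 (0.767 to 1.80), both at an adjusted p of 0.967 from limma. Without replicate 2 of both genotypes, the log2 fold change of Cnn1 was -0.10 instead of 0.23.

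Cnn2, the calponin found in many cell types besides smooth muscle, was the steadiest of the set. Cnn2 (ENSMUSG00000004665, mm9 chromosome 10, 79451329 to 79458807, plus strand) was 27.0, 22.2 and 22.0 RPKM in Scx-/- and 25.5, 22.4 and 25.6 RPKM in Scx+/+. Its fold was 0.965 with a 95% confidence interval of 0.745 to 1.25, the narrowest of the set. Cnn1 was 211.0%, 251.6% and 146.0% of Cnn2 in Scx-/- and 191.5%, 133.3% and 167.9% in Scx+/+. The log2 ratio was 0.98 ± 0.40 (SD, n = 3) in Scx-/- and 0.70 ± 0.26 (SD, n = 3) in Scx+/+, less apart than the SD in Scx-/- (p = 0.4 in a two-sided exact permutation test, whose smallest possible p with 3 against 3 is 0.1). The third calponin, Cnn3, was 55.7 ± 2.80 RPKM in Scx-/- against 54.1 ± 3.01 RPKM in Scx+/+ (SD, n = 3 each).

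Actg2 (smooth muscle gamma-actin of the gut and bladder) and Myh11 (the motor protein of smooth muscle) differed more between libraries of the same genotype than between genotypes. Myh11 (ENSMUSG00000018830, mm9 chromosome 16, 14194620 to 14291501, minus strand) was 0.478, 2.39 and 1.72 RPKM in Scx-/- (166, 1062 and 683 reads). In Scx+/+ it was 0.467, 2.44 and 0.508 RPKM (186, 751 and 231 reads). High levels were seen in replicate 2 of both genotypes and in Scx-/- replicate 3, and low levels in the other 3 libraries, with none in between. Actg2 (ENSMUSG00000059430, mm9 chromosome 6, 83462899 to 83486259, minus strand) was 1.20, 4.13 and 2.13 RPKM in Scx-/- and 0.971, 3.74 and 0.952 RPKM in Scx+/+. The order was similar, with the same 3 libraries on top. The highest library stood at 5.22 times the lowest for Myh11 and 4.34 times for Actg2, against 1.60 times for Acta2 and 1.23 times for Cnn2.

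The within-genotype standard deviation on the log2 scale was 1.17 for Myh11 and 0.97 for Actg2, above those of 92.9% and 88.8% of all genes. The median was 0.30 over the 10 members and 0.31 over the 13827 genes that averaged 1 RPKM or more. The genotype comparison of Myh11 gave a fold of 1.44 with a 95% confidence interval of 0.469 to 4.43, and that of Actg2 a fold of 1.42 with an interval of 0.559 to 3.58, both at an adjusted p of 0.967 from limma. When single libraries were left out, the log2 fold change ranged from 0.10 to 1.23 for Myh11 and from 0.06 to 1.12 for Actg2, with the highest value in both cases when Scx+/+ replicate 2 was left out. Xist was 21.7 and 12.7 RPKM in replicate 2 of Scx-/- and Scx+/+ and at the fill-in value in the other 4 libraries (the common low RPKM that stands in the table for values too low to quantify), so that the pair of libraries with the highest Actg2 and Myh11 was also the pair with Xist. Scx-/- replicate 3, without Xist, was the third library with high Myh11, and the part of sex in the difference was not tested.

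Lmod1, a leiomodin that nucleates actin filaments in smooth muscle, was the lowest member and was also highest in Scx+/+ replicate 2. Lmod1 (ENSMUSG00000048096, mm9 chromosome 1, 137221384 to 137264642, plus strand) was 0.439 and 0.267 RPKM in Scx-/- replicates 2 and 3, from 116 and 63 reads, and was listed at the fill-in value in Scx-/- replicate 1. In Scx+/+ it was 0.177, 1.00 and 0.410 RPKM, from 42, 184 and 111 reads. Its libraries overlapped between genotypes, and replicate 1 was the lowest of each. The log2 fold change of -0.67 had a standard error of 0.68 (limma, with a p of 0.348 before and 0.967 after adjustment). It was -0.15 without Scx+/+ replicate 2, -0.28 without Scx-/- replicate 1 and -1.15 without Scx+/+ replicate 1, and -0.25 with a pseudocount of 1. The relatives Lmod2 and Lmod3, which serve in heart and skeletal muscle, were far higher, with Lmod2 at 39.4 ± 5.50 against 41.0 ± 5.03 RPKM and Lmod3 at 37.2 ± 10.8 against 32.2 ± 8.46 RPKM (Scx-/- against Scx+/+, SD, n = 3 each).

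**Figure D3:**
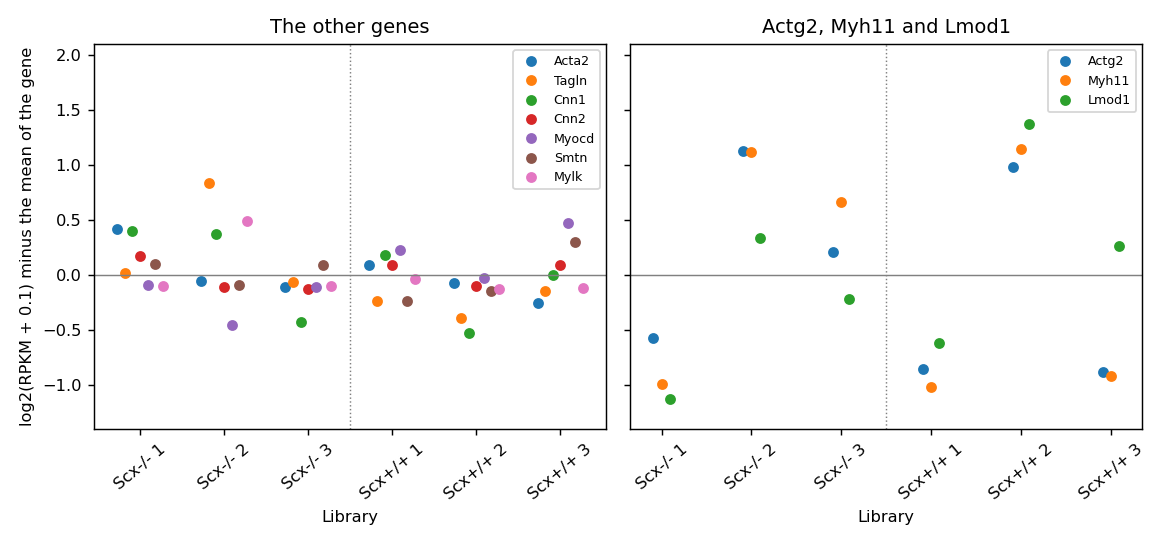
Level of each gene in each library as log2(RPKM + 0.1) minus the mean of the gene, with 1 point per gene and library and a dotted line between the genotypes. Actg2 and Myh11 lie above 0 in replicate 2 of both genotypes and in Scx-/- replicate 3 and below 0 in the other 3 libraries, whereas most of the other genes stay within 0.5 of 0.

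Over the 6 libraries, Pearson's r with Myh11 on the log2(RPKM + 0.1) scale was 0.97 for Actg2 and 0.71 for Lmod1, and it was 0.34 for Tagln, -0.39 for Acta2, -0.49 for Cnn1, -0.69 for Myocd and -0.95 for Cnn2. These are descriptions of 6 libraries that differ in depth and RNA composition. Among 7862 genes that averaged 5 RPKM or more, those most like Myh11 by this measure were Fcgrt (r = 0.98), Zscan12 (0.97), Gm6788 (0.96), Lactb2 (0.96) and Rbm18 (0.95), none of them a gene of the lists. The actins are so alike in their coding sequence that reads of Acta2 or another actin could be assigned to Actg2, which was not tested. Actg2 was 0.219%, 1.05% and 0.560% of Acta2 in Scx-/- and 0.222%, 0.959% and 0.277% in Scx+/+.

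The non-muscle myosin Myh10, which is expressed in immature smooth muscle and mesenchyme, was far above Myh11. Myh10 was 33.8 ± 7.40 RPKM in Scx-/- against 36.5 ± 10.9 RPKM in Scx+/+ (SD, n = 3 each). Myh11 was 1.29%, 6.12% and 6.80% of Myh10 in Scx-/- and 1.05%, 10.1% and 1.25% in Scx+/+. The same libraries were high as for Myh11 alone. The log2 ratio was -4.59 ± 1.22 (SD, n = 3) in Scx-/- and -5.21 ± 1.70 (SD, n = 3) in Scx+/+ (p = 0.8, two-sided exact permutation). Myh9, another non-muscle myosin, was 10.6, 8.45 and 7.37 RPKM in Scx-/- and 12.4, 9.24 and 12.9 RPKM in Scx+/+. Its log2 fold change of -0.38 had a p from limma of 0.112 before and 0.967 after adjustment. Myh9 was called when the median of each library was set to 0 (unadjusted p of 0.0365), after quantile normalization (0.0389) and without Scx+/+ replicate 2 (0.0356), and in no other alternative run.

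The cardiac actin Actc1 exceeded Acta2 in every library, at 2763 ± 406.3 RPKM in Scx-/- against 2573 ± 564.4 RPKM in Scx+/+ (SD, n = 3 each). Acta2 was 18.4%, 17.2% and 12.6% of Actc1 in Scx-/- and 17.0%, 12.4% and 17.1% in Scx+/+. The lowest shares were those of Scx-/- replicate 3 and Scx+/+ replicate 2. The log2 ratio was -2.65 ± 0.29 (SD, n = 3) in Scx-/- and -2.70 ± 0.26 (SD, n = 3) in Scx+/+ (p = 0.5, two-sided exact permutation), and its difference changed sign with quantile normalization.

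**Figure D4:**
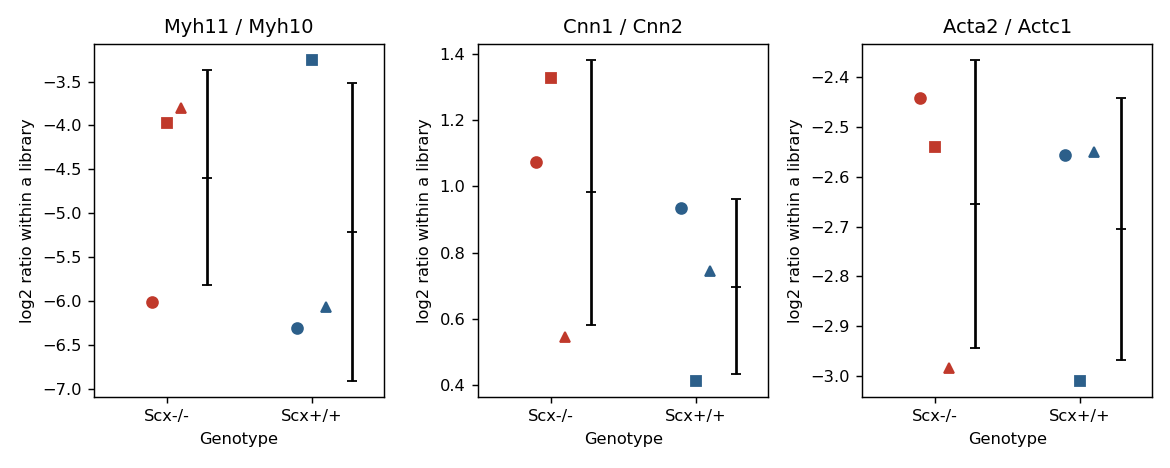
Log2 ratio within each library of Myh11 to Myh10, Cnn1 to Cnn2 and Acta2 to Actc1 (circles, squares and triangles are replicates 1, 2 and 3), with the mean and SD of each genotype in black. The genotypes overlap in all 3 ratios, and the Myh11 to Myh10 ratio separates libraries within both genotypes.

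Of the regulators of contraction, Mylk, the kinase that activates smooth muscle myosin, was nearly level apart from 1 library, and Smtn, the actin-binding protein smoothelin, differed little. Mylk (ENSMUSG00000022836, mm9 chromosome 16, 34745296 to 35002520, plus strand) was 1.46, 2.25 and 1.46 RPKM in Scx-/- and 1.53, 1.43 and 1.44 RPKM in Scx+/+. Scx-/- replicate 2, which also had the highest Tagln, stood above the rest, and without it the log2 fold change of 0.19 was -0.0029. Smtn (ENSMUSG00000020439, mm9 chromosome 11, 3417526 to 3440615, minus strand) was 2.47, 2.15 and 2.45 RPKM in Scx-/- and 1.93, 2.07 and 2.86 RPKM in Scx+/+. Scx+/+ replicates held both the lowest and the highest value. The fold was 1.14 (95% confidence interval 0.707 to 1.85) for Mylk and 1.04 (0.683 to 1.59) for Smtn, and that of Smtn changed sign under both other scalings. A share of 16.3% of the exon length of Smtn overlaps the lincRNA Gm11946 on the opposite strand. The heart-specific kinase Mylk3 was 91.0 ± 10.2 RPKM in Scx-/- against 86.7 ± 11.1 RPKM in Scx+/+ (SD, n = 3 each).

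Myocd, the myocardin cofactor of serum response factor in smooth and heart muscle, was lower in every Scx-/- library. Myocd (ENSMUSG00000020542, mm9 chromosome 11, 64990063 to 65083491, minus strand) was 7.79, 6.01 and 7.67 RPKM in Scx-/- (2706, 2673 and 3040 reads). In Scx+/+ it was 9.72, 8.12 and 11.6 RPKM (3875, 2504 and 5266 reads). The gap between the highest Scx-/- and the lowest Scx+/+ library was small. The fold was 0.735 (95% confidence interval 0.528 to 1.02), a log2 fold change of -0.44 with a standard error of 0.21, with a p from limma of 0.0646 before and 0.967 after adjustment. It was called at an unadjusted p of 0.0285 with the median of each library set to 0, at 0.0306 after quantile normalization and at 0.0258 without Scx+/+ replicate 2. The direction was kept in all 16 alternatives, whose p ranged from 0.0258 to 0.171. As the libraries of Myocd did not overlap, only quantile normalization and median centring could have reversed it. Both take off a shift of most genes toward Scx-/-, and they gave log2 fold changes of -0.56 and -0.55. The kept direction is therefore no support.

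Since Myocd is also expressed in heart muscle, the cardiomyocyte markers are given beside it. Of the 10 markers, Ryr2, the calcium release channel of heart muscle, was called lower, where 1.06% of all genes were, with a log2 fold change of -0.46 at a p from limma of 0.0308 before and 0.967 after adjustment. Ryr2 was 36.7 ± 6.59 RPKM in Scx-/- against 50.3 ± 5.11 RPKM in Scx+/+ (SD, n = 3 each). The call of Ryr2 was lost without a variance trend, without Scx-/- replicate 1 or 2, without Scx+/+ replicate 1 or 3 and without replicate 2 of both genotypes, with unadjusted p of 0.0620 to 0.0928. Myh7, the ventricular and fetal myosin heavy chain, was 2128 ± 195.7 RPKM in Scx-/- against 2677 ± 257.2 RPKM in Scx+/+ (SD, n = 3 each), and like Ryr2 did not overlap between genotypes, although it was not called. The other 8 markers overlapped, and 2.31% of all genes did not overlap on the lower side. Log2 fold changes were above 0 for 5 of the 10 markers (Tnnt2 0.23, Myl2 0.22, Tnni3 0.10, Myl7 0.08 and Ttn 0.08) and below 0 for the other 5 (Ryr2, Myh7, Actn2 -0.31, Myh6 -0.30 and Nppa -0.01), and 9 of the 10 were not called. The median log2 fold change of the 10 markers was 0.03, none was at the fill-in value, and the part of heart muscle in the values of Myocd was not tested.

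The wider apparatus showed no called gene either. Of 20 further smooth muscle genes, 19 were in the table and 0 were called, with a median log2 fold change of 0.10. The most abundant were Tpm1 (tropomyosin) and Pln (phospholamban), both also genes of heart muscle, and Myl9, the regulatory light chain of smooth muscle myosin, which was 602.5 ± 57.2 RPKM in Scx-/- against 488.4 ± 157.6 RPKM in Scx+/+ (SD, n = 3 each). Of serum response factor and its cofactors, 10 of 10 were in the table and 0 were called. Srf itself was 9.64 ± 1.52 RPKM in Scx-/- against 9.49 ± 2.08 RPKM in Scx+/+ (SD, n = 3 each). Of the 10 genes that regulate myosin phosphorylation 0 were called. All 10 had a log2 fold change above 0 on the deposited scale, as did 11996 of all 18810 genes. The median of the 10 was 0.17 where that of all genes was 0.10. The calmodulin genes Calm2 and Calm3 were among the 10 and did not overlap between genotypes. On the higher side in Scx-/- this held for 7.19% of all genes. Of 17 relatives of the members, 13 were in the table and 0 were called.

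Of the other relatives, Actb, a cytoskeletal actin of all cells, was 237.7 ± 53.6 RPKM in Scx-/- against 207.0 ± 20.0 RPKM in Scx+/+ (SD, n = 3 each), and Actg1 127.2 ± 32.6 against 116.4 ± 16.1 RPKM (SD, n = 3). The skeletal actin Acta1 was 71.9 ± 10.1 against 65.1 ± 3.37 RPKM (SD, n = 3), and the transgelin Tagln2 33.8 ± 7.74 against 30.4 ± 5.59 RPKM (SD, n = 3). Tagln3, a transgelin of neurons, varied more, with its highest library at 3.04 times its lowest, and was 0.482 ± 0.0548 against 0.619 ± 0.315 RPKM (SD, n = 3). Smtnl2, a smoothelin-like gene, was 7.18 ± 1.44 against 7.48 ± 1.18 RPKM (SD, n = 3). In each of them the difference between the genotypes was within the larger SD, though for Actb, Acta1 and Tagln3 it exceeded the smaller.

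Markers of pericytes, the mural cells next of kin to smooth muscle, were examined in the same libraries. Of the 6 markers 0 were called, none was at the fill-in value, and they summed to 56.3 to 71.8 RPKM in Scx-/- and 54.3 to 79.3 RPKM in Scx+/+. Their median log2 fold change was -0.21, with 4 below 0 and 2 above. With each marker weighted equally, their mean log2 deviation from the mean of the gene did not overlap, unlike the sum. It was -0.12 to 0.00046 in Scx-/- and 0.016 to 0.13 in Scx+/+, with a small gap. Abcc9 was the 1 marker without overlap, on the lower side in Scx-/-, where 2.31% of all genes lay. Rgs5 was 21.1, 25.5 and 38.1 RPKM in Scx-/- and 19.6, 39.6 and 15.8 RPKM in Scx+/+, and so was highest in the same 3 libraries as Myh11. Pdgfrb and Cspg4 ran the other way and were lowest in Scx-/- replicate 3 and Scx+/+ replicate 2. Pdgfrb was 4.33, 3.75 and 2.59 RPKM in Scx-/- and 4.25, 2.75 and 5.57 RPKM in Scx+/+, and Cspg4 was 2.74, 2.15 and 1.24 RPKM in Scx-/- and 2.85, 1.54 and 2.62 RPKM in Scx+/+. The part of pericytes in the values of Myh11 was not tested. Of 5 epicardial markers 2 were called higher, where 2.82% of all genes were, Tcf21 with a log2 fold change of 0.57 (unadjusted p of 0.0225) and Aldh1a2 with 0.60 (unadjusted p of 0.0430), both at an adjusted p of 0.967 from limma. Both calls were lost after quantile normalization (unadjusted p of 0.0634 for Tcf21 and 0.0520 for Aldh1a2) and with the median of each library set to 0 (0.0676 and 0.0564). Tcf21 was also lost without Scx-/- replicate 2 or 3 or Scx+/+ replicate 1, with unadjusted p of 0.0515 to 0.0668. Aldh1a2 was also lost with the replicate block (0.0612), without replicate 2 of both genotypes (0.0671) and without any single library other than Scx+/+ replicate 2 (0.0507 to 0.124). The summed level of the 5 epicardial markers, 26.5 to 34.6 RPKM in Scx-/- against 21.6 to 25.6 RPKM in Scx+/+, did not overlap, as for Tagln. Nor did that of the 10 genes that regulate myosin phosphorylation, at 702.0 to 762.1 against 567.1 to 695.0 RPKM. These sums are on the deposited scale, where 11996 of all 18810 genes had a log2 fold change above 0. The part of the epicardial markers in the values of Tagln was not tested. Of 4 macrophage markers Cd68 was called higher, with a log2 fold change of 1.48 at a p from limma of 0.0290 before and 0.967 after adjustment, and at most 1.54 RPKM in any library. It was listed at the fill-in value in Scx+/+ replicate 2. Its call was lost in both tests without a shared variance, with the replicate block, without Scx-/- replicate 2 or 3, without Scx+/+ replicate 2 and without replicate 2 of both genotypes, with unadjusted p of 0.0592 to 0.103. None of the 8 mesenchymal, 6 endothelial and 6 erythroid markers was called. Of the mesenchymal markers 1 did not overlap on the higher side and 1 on the lower, where 7.19% and 2.31% of all genes lay. The endothelial markers summed to 113.8 to 134.0 RPKM in Scx-/- and 114.0 to 129.6 RPKM in Scx+/+, and the erythroid markers to 7224 to 10962 and 6147 to 10756 RPKM.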

How the data were processed

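Total RNA of the 6 dissected regions was sequenced on an Illumina HiSeq. Per the labels and the methods, the authors aligned reads to mm9 with TopHat 1.4.1, counted them over Ensembl exons with easyRNASeq and deposited RPKM, after a threshold near 50 reads and the replacement of low values by a common one, here called the fill-in value (0.0949 RPKM). Symbols, coordinates and exon lengths were read from GENCODE on mm9 for 18695 of 18810 identifiers. Multiplying RPKM by exon length and depth gave whole reads (within 0.1) for 98.5% to 98.6% of values under 1000 reads. No count test was run.

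The main test was limma 3.58.1 (R 4.3.3) on log2(RPKM + 0.1) with genotype as the only term and a variance trend. Benjamini-Hochberg adjustment covered all genes, and the script was checked on simulated data. Intervals are 95%. The labels give separate samples without naming litters, so p-values measure the spread between these libraries. Ratios were tested by exact permutation in Python 3.11.15 (scipy 1.17.1). Alternatives were 2 other pseudocounts, a filter at a mean of 1 RPKM, no trend, one-way ANOVA per gene (on log2 and on RPKM, without a shared variance), quantile normalization, median centring, a replicate block and each library left out. The members, lists and tests were chosen with earlier results of these data known. Genes named are the members, Scx, Srf, the relatives, called genes of the lists, the 5 genes most like Myh11 and, chosen after their values were seen, Xist, Ddx3y, Myl9, Tpm1, Pln, Calm2, Calm3, Rgs5, Pdgfrb, Cspg4, Abcc9 and the cardiomyocyte markers other than Ryr2.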

Additional observations from a re-analysis of the deposited data

How the results depend on the processing

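No member was called with other pseudocounts (0.01 and 1), the filter at a mean of 1 RPKM (which removes Lmod1), no trend, both forms of one-way ANOVA and the replicate block. With quantile normalization and with the median of each library set to 0, 1 member was called (Myocd), and with each library left out the count ranged from 0 to 1 (Tagln without Scx-/- replicate 3, Myocd without Scx+/+ replicate 2). Over all genes the 731 calls became 539 to 1549 when single libraries were left out, the most without Scx+/+ replicate 2, and were 1704 without replicate 2 of both genotypes, an alternative chosen after seeing the data. One-way ANOVA called 865 genes on log2 and 848 on RPKM, and 1 gene on log2 after adjustment. The cause was not tested. The values that changed sign were not called and had small log2 fold changes, except Scx without Scx-/- replicate 3 (-0.50). With quantile normalization these were Smtn (-0.0057), Scx (-0.044), Srf (-0.047), Actg1 (-0.027), Cnn3 (-0.079), Mylk3 (-0.063) and the Acta2 to Actc1 ratio (-0.16). With the median set to 0 they were Smtn (-0.048), Scx (-0.038), Srf (-0.074), Actg1 (-0.0055), Cnn3 (-0.066) and Mylk3 (-0.037). Without replicate 2 of both genotypes they were Cnn1 (-0.10), Mylk (-0.018), Actg1 (-0.062), Cnn3 (-0.0040), Tagln3 (0.058), Lmod2 (0.081) and the ratios of Cnn1 to Cnn2 (-0.031) and Acta2 to Actc1 (-0.16). With each library left out the log2 fold change ranged from -0.00096 to 0.26 for Acta2, -0.15 to 0.00071 for Cnn2, -0.0029 to 0.29 for Mylk, -0.044 to 0.23 for Smtn, -0.50 to 0.57 for Scx, -0.16 to 0.16 for Srf, -0.051 to 0.27 for Actc1, -0.062 to 0.32 for Actg1, -0.036 to 0.29 for Tagln2, -0.57 to 0.10 for Tagln3, -0.36 to 0.11 for Myh10, -0.034 to 0.17 for Mylk3, -0.17 to 0.040 for Lmod2, -0.020 to 0.40 for Lmod3, -0.20 to 0.092 for Smtnl2 and -0.10 to 0.21 for the ratio of Acta2 to Actc1. The log2 ratio of Myh11 to Myh10 kept its sign, between 0.07 and 1.59, and so did that of Cnn1 to Cnn2, between 0.11 and 0.50. The labels do not say whether replicate numbers pair the libraries. The deviations of same-numbered libraries correlated at 0.09, -0.22 and -0.19 over 13827 genes. This cannot exclude a pairing, since deviations from a mean of 3 libraries offset each other. With the replicate block 573 genes and 0 members were called. With 3 libraries a genotype and the spread seen here, the intervals of Myh11, Actg2 and Lmod1 reach from well below to well above 1.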
